A study of Mus musculus with 8 samples.

Results

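The genes described here are 10 members of the Bcl2 family: the survival genes Bcl2, Bcl2l1 and Mcl1, the pore formers Bax and Bak1, and the BH3-only genes Bcl2l11, Bid, Bad, Bbc3 and Pmaip1. They were chosen by name, as the non-control probes whose gene name is one of the 10, and they are 10 of the 36095 features on the array and 10 of the 19818 genes tested. The names matched 13 probes, with 2 each for Bcl2l1, Mcl1 and Bad, and each gene was read from its brightest probe. All 10 brightest probes were well above background on all 8 arrays, so no member was lost to the filter on dim probes. The samples were plasmacytoid dendritic cells (pDC) of female BALB/c mice, obtained by culturing bone marrow precursors with Flt3 ligand and then sorting magnetically and by flow cytometry. One group of 4 samples was sorted as Sca-1+ and the other group of 4 as Sca-1-. The labels name no stimulus or treatment of either group, and cells were lysed right after the sort. The series' title asks whether Sca-1 marks different developmental stages of mouse pDC. A cultured and sorted population is not a pDC taken from tissue, and the labels do not say whether a replicate is 1 animal or a pool.

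Bcl2 family proteins decide whether the outer mitochondrial membrane stays intact. The survival proteins bind and hold back the pore formers and the BH3-only proteins. When BH3-only proteins are induced or released they occupy the survival proteins or activate Bax and Bak, which then open the membrane and let cytochrome c reach the cytosol, where caspases are switched on. In pDC, Bcl2 itself is known as a survival factor whose loss or inhibition shortens the life of the cell.

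A microarray reads only the stretch of a transcript that its probe matches, so the probes behind the results are given first, each 5′ to 3′ with its place in mouse build mm9 per the file headers. The Bcl2 probe carries the main difference, and its stretch encodes part of the BH1 domain. The array design assigns it to transcript variant 2, and whether it also reads other variants was not examined. It lies at chr1:108608970-108609029 on the minus strand.
Bcl2: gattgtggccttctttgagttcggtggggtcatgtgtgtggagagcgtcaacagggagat
The Bcl2l11 probe is shown because it was the brightest probe nearest to its background, and its stretch encodes part of the BH3 helix. Its ends lie 11096 bases apart, chr2:127972893-127983988 on the plus strand, so it spans an intron and reads spliced RNA.
Bcl2l11: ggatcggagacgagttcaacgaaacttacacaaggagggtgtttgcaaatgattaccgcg
Bcl2l1 and Bad have a pair of probes each, and these are shown because the 2 probes of a gene read different places in it. The brighter probe of Bcl2l1, at chr2:152606404-152606463 on the minus strand, holds the polyadenylation hexamer AATAAA (capitals), and so does the brighter probe of Bad, at chr19:7026323-7026382 on the plus strand. Bases 22 to 51 and bases 30 to 59 of these 60-base probes read as follows.
Bcl2l1, brighter probe: gtgcagttcagtAATAAAtggtgtctgtga
Bad, brighter probe: aacgtgctttatAATAAAgcctgcgcatgt
The dimmer probes lie elsewhere in the genes, at chr2:152655185-152655244 on the minus strand for Bcl2l1 and, with an intron between its ends, at chr19:7016918-7017403 on the plus strand for Bad.
Bcl2l1, dimmer probe: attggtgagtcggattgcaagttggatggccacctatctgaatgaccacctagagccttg
Bad, dimmer probe: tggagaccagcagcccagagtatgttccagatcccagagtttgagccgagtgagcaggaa
AATAAA on the probe's own strand occurs in 10.1% of all 55681 probes, and in 13.5% on either strand (TTTATT on the other). No member probe shares a run of 20 bases with a probe of any other name, and the longest run that probes of different members share is 10 bases, between Bcl2l1 and Pmaip1. Of the remaining brightest probes, 5 lie at chr3:95466855-95466914 (plus strand) for Mcl1, chr7:52717122-52717181 (minus) for Bax, chr17:27156807-27156866 (minus) for Bak1, chr6:120843464-120843523 (minus) for Bid and chr7:16903403-16903462 (plus) for Bbc3.

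A level is the log2 processed signal of a probe minus the 75th percentile of its array, so it compares samples for 1 probe and not one probe with another. Between 45.9% and 54.9% of spots per array were well above background. Ly6a, the gene of Sca-1, had a log2 difference of 4.65, or 25.1-fold, in favour of Sca-1+ pDC (limma adjusted p = 0.000625), which checks the sort and is no finding. All 10 pDC markers were well above background on every array, with a summed linear level of 2167 to 2744 in Sca-1+ and 1865 to 2622 in Sca-1- samples. Per the file headers, samples with the same replicate number lay on the same slide. Slide 4 stands apart from the other slides: it was scanned on another day and extracted under a later protocol, and the signal that sets the scale was 396 on its Sca-1+ array and 434 on its Sca-1- array, against 152 to 232 on the other 6 arrays. Each slide held its Sca-1+ sample in position 2 and its Sca-1- sample in position 1, so position and group cannot be told apart.

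Bcl2 stood apart from the other 9 members: it was lower in Sca-1+ pDC in the fit that pairs the samples by slide, which no other member passed, and it missed the threshold in the unpaired fit. In the unpaired limma fit 0 of 10 members had an adjusted p under 0.05 (background 1.71% of all tested genes, 1.58% lower and 0.126% higher in Sca-1+). An unadjusted p under 0.05 was seen for 2 members, Bcl2 and Bid (background 8.96%). With the replicate number as a block, 1 of 10 passed (background 6.22%, 4.12% lower and 2.10% higher). In that fit 3 had an unadjusted p under 0.05, namely Bcl2, Bid and Bax (background 24.3%). The groups did not overlap for 1 of 10 members, again Bcl2 (background 6.95%, 5.03% lower and 1.91% higher). Within all 4 replicate pairs Sca-1+ lay below Sca-1- for 4 members, Bcl2, Bax, Bid and Bad (background 17.8%), and above it for 1 member, Bbc3 (background 18.4%). The sign of the difference was negative for 7 members (background 44.6%) and positive for 3, and the median over the 10 was -0.17, against 0.03 over all tested genes. Without Bcl2 the median was -0.12, and the other 9 members lay between -0.43 and 0.20. In sorted bulk samples, fewer cells of a type and less RNA per cell cannot be told apart, and this holds for every difference given here.

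**Figure D1:**
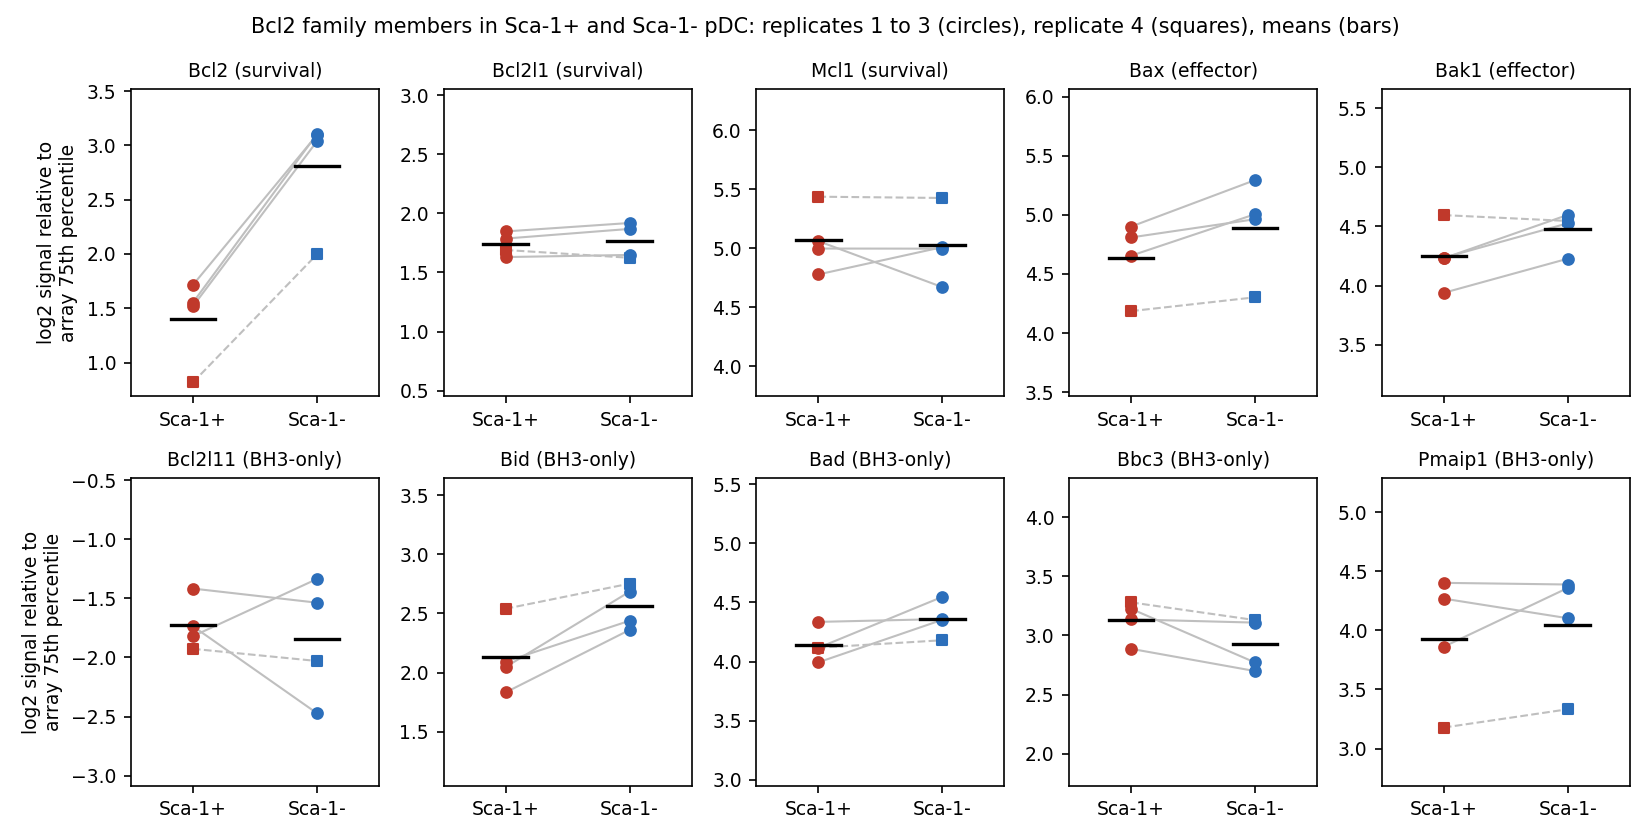
Level of each Bcl2 family member on every array, as log2 processed signal minus the 75th percentile of the array; each panel holds Sca-1+ on the left and Sca-1- on the right, lines join samples of the same replicate number, and replicate 4 is drawn as squares. Bcl2 is the 1 panel in which the groups do not overlap, and its 4 lines all run the same way.

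Bcl2 is the founding survival gene of the family. Its level in Sca-1+ replicates 1 to 4 was 1.71, 1.55, 1.52 and 0.82, against 3.09, 3.10, 3.04 and 2.00 in Sca-1- replicates 1 to 4. Every Sca-1+ sample lay below every Sca-1- sample, and in both groups replicate 4 was the lowest. The groups averaged 1.40 ± 0.40 in Sca-1+ and 2.81 ± 0.54 in Sca-1- pDC (SD, n = 4 each). The processed signal before any scaling was 545, 564, 574 and 697 in Sca-1+ samples, against 1984, 1307, 1712 and 1731 in Sca-1- samples. These unscaled signals did not overlap either, and replicate 4 was the highest of the Sca-1+ samples on that scale. The log2 difference was -1.41 (SE 0.30, 95% interval -2.10 to -0.72), a 2.65-fold lower level in Sca-1+ pDC, and it missed the threshold in the unpaired limma fit (adjusted p = 0.0735). Within replicates 1 to 4 it was -1.38, -1.55, -1.52 and -1.18. With the replicate block the same difference had an SE of 0.0927 and an interval of -1.64 to -1.18, and it passed (limma adjusted p = 0.00151). In scaled level replicate 4 was thus the lowest of both groups, while before scaling it was the lowest of neither. Its within-slide difference was the smallest of the 4. Without replicate 4 in either group the unpaired fit also passed (difference -1.48, adjusted p = 0.00315), as it did without the Sca-1- sample of replicate 4 alone (-1.68, adjusted p = 0.00827). With all 8 arrays it also passed unpaired after normexp background correction (-1.33, adjusted p = 0.0304) and with an intensity trend in the variance (adjusted p = 0.0450). Of all tested genes, 1.45% had a larger fall than Bcl2.

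Bcl2l1 encodes Bcl-xL, a survival protein that can stand in for Bcl2 in many cells. Its level in Sca-1+ replicates 1 to 4 was 1.85, 1.79, 1.63 and 1.69, against 1.92, 1.87, 1.65 and 1.62 in Sca-1- replicates 1 to 4. The samples of both groups were interleaved, and the spread within a group was among the smallest of any member. The difference was -0.03 with an interval of -0.32 to 0.27, or -0.21 to 0.16 with the replicate block, neither of which reaches the difference of Bcl2. The dimmer Bcl2l1 probe was well above background on 1 Sca-1+ and 2 Sca-1- arrays, so it was not tested. Its unscaled signal in Sca-1+ replicates 1 to 4 was 6.69, 10.9, 11.2 and 29.0, against 19.2, 13.9, 12.6 and 41.0 in Sca-1- replicates 1 to 4. Sca-1+ was the lower sample of every pair, the groups overlapped through replicate 4 only, and the scaled differences within replicates 1 to 4 were -1.04, -0.69, -0.11 and -0.37. Averaging both probes moved the Bcl2l1 difference to -0.29, which did not pass (limma adjusted p = 0.692).

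Mcl1 is a short-lived survival protein that dendritic cells and many other blood cells need. Its level in Sca-1+ replicates 1 to 4 was 4.78, 4.998, 5.06 and 5.44, against 5.01, 4.996, 4.67 and 5.43 in Sca-1- replicates 1 to 4. The groups overlapped over nearly their whole range, and replicate 4 was the highest of both. The difference was 0.04 (interval -0.42 to 0.51, with the block -0.25 to 0.33), and the second Mcl1 probe gave -0.02. The 3 survival genes therefore had 1 difference that passed with the block, and 2 whose intervals include 0.

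The pore formers Bax and Bak1 each had a small negative difference that did not pass. Bax levels in Sca-1+ replicates 1 to 4 were 4.65, 4.90, 4.81 and 4.19, against 5.01, 5.29, 4.96 and 4.30 in Sca-1- replicates 1 to 4. The groups overlapped because replicate 4 was the lowest of both, while within every pair Sca-1+ lay below Sca-1-, by -0.35, -0.39, -0.15 and -0.12. The Bax difference was -0.25 (interval -0.81 to 0.31, with the block -0.47 to -0.04; adjusted p = 1.00 unpaired and 0.150 with the block, both limma). Bak1 levels in Sca-1+ replicates 1 to 4 were 4.24, 4.23, 3.94 and 4.60, against 4.53, 4.60, 4.23 and 4.55 in Sca-1- replicates 1 to 4. Sca-1+ was below Sca-1- in replicates 1 to 3 and slightly above it in replicate 4. The Bak1 difference was -0.22 (interval -0.61 to 0.16, with the block -0.46 to 0.02; adjusted p = 0.925 unpaired and 0.231 with the block).

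Among the BH3-only genes, Bid had the largest difference. Bid encodes a protein that caspase-8 cleaves, which carries a death receptor signal to the mitochondrion. Its level in Sca-1+ replicates 1 to 4 was 2.05, 2.09, 1.83 and 2.54, against 2.68, 2.44, 2.36 and 2.75 in Sca-1- replicates 1 to 4. Sca-1+ replicate 4 lay above 2 of the Sca-1- samples, and within each pair Sca-1+ was the lower sample, by -0.64, -0.34, -0.53 and -0.21. The difference of -0.43 (SE 0.18, interval -0.84 to -0.02) is 1.35-fold. It did not pass in limma, with an adjusted p of 0.524 unpaired and 0.0644 with the block (interval -0.67 to -0.19). It passed where the block was joined to normexp background correction (adjusted p = 0.0166), a setting added after the data were seen.

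Bad links growth factor and nutrient kinases to the family, since its phosphorylated form is held away from Bcl-xL. Its level in Sca-1+ replicates 1 to 4 was 4.34, 4.12, 3.99 and 4.12, against 4.36, 4.55, 4.35 and 4.18 in Sca-1- replicates 1 to 4. Within the pairs Sca-1+ was lower each time, by as little as -0.02 and as much as -0.43, and the groups overlapped. The difference was -0.22 (interval -0.53 to 0.09, with the block -0.47 to 0.03). The dimmer Bad probe gave -0.06, with a different sign in replicates 3 and 4 than in replicates 1 and 2, so the 2 probes of Bad do not both show a lower value within every pair.

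Bbc3 (Puma) and Pmaip1 (Noxa) are classical p53 targets that bind survival proteins. Bbc3 levels in Sca-1+ replicates 1 to 4 were 3.23, 2.89, 3.14 and 3.28, against 2.77, 2.70, 3.11 and 3.13 in Sca-1- replicates 1 to 4. Sca-1+ was above Sca-1- within each pair and the groups overlapped, with a difference of 0.20 (interval -0.16 to 0.57, with the block -0.03 to 0.44). Pmaip1 levels in Sca-1+ replicates 1 to 4 were 4.40, 4.27, 3.86 and 3.18, against 4.39, 4.10, 4.36 and 3.33 in Sca-1- replicates 1 to 4. Replicate 4 was the lowest of both groups, the pairs disagreed in sign, and the difference was -0.12 (interval -0.87 to 0.63, with the block -0.43 to 0.19).

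Bcl2l11 encodes Bim, the BH3-only protein most tied to the death of immune cells that lose their cytokine. Its level in Sca-1+ replicates 1 to 4 was -1.74, -1.82, -1.42 and -1.93, against -2.47, -1.34, -1.54 and -2.03 in Sca-1- replicates 1 to 4. The groups overlapped, and within pairs the difference ran from -0.48 in replicate 2 to 0.74 in replicate 1. The probe was dim, at 3.06 to 5.47 times its local background on the 8 arrays, against 23.3 to 81.1 times for the Bcl2 probe. The difference was 0.12 with an interval of -0.47 to 0.70, or -0.36 to 0.60 with the block, the widest of the 10 members with the block.

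**Figure D2:**
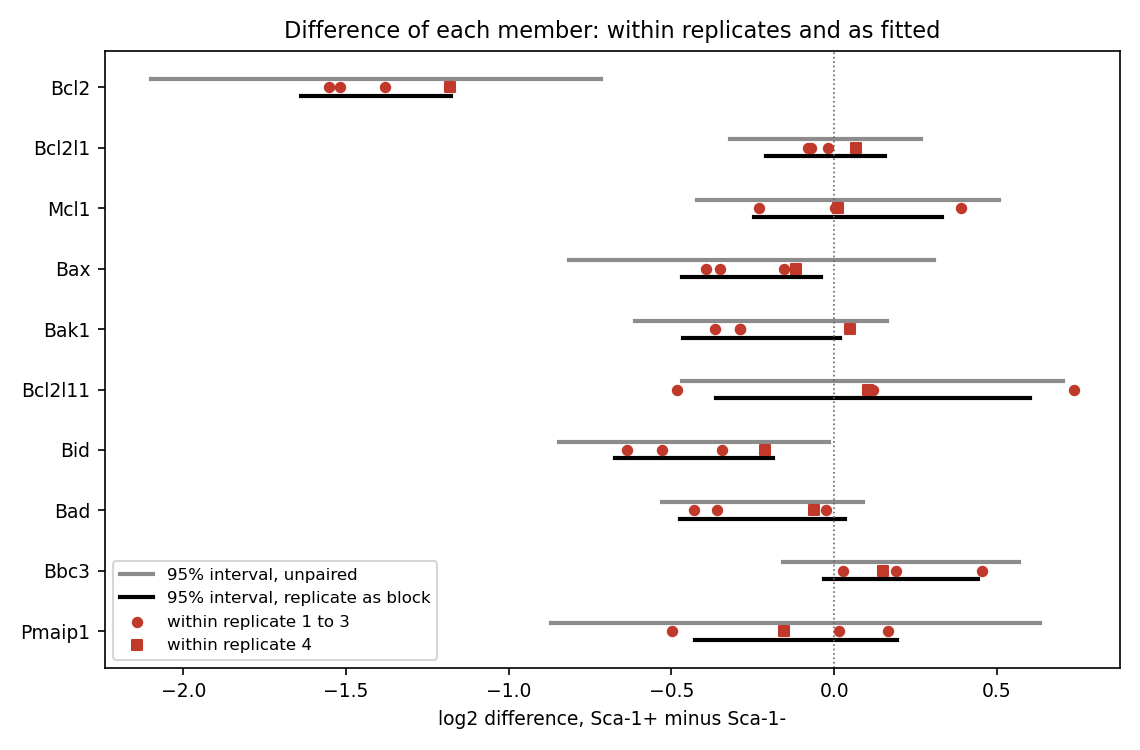
Log2 difference of each member, Sca-1+ minus Sca-1-, with the 95% interval of the unpaired fit and of the fit with the replicate block; small points are the within-replicate differences. Bcl2 at -1.41 lies apart from the other 9 members, which lie between -0.43 and 0.20.

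Because all members are read on the same array, subtracting 1 constant per array, as done here, cancels in the difference between 2 of them in a sample. Bcl2 moved against each of the other 9 members in the same direction: the shift of Bcl2 minus the other gene between the groups ran from -1.61 against Bbc3 to -0.98 against Bid. Against its fellow survival genes the shift was -1.38 for Bcl2l1 and -1.45 for Mcl1, and against the pore former Bax it was -1.15. All 36 within-replicate values were negative, from -2.12 to -0.74. The groups did not overlap against Bcl2l1, Bax, Bcl2l11, Bad, Bbc3 and Pmaip1, and they overlapped against Mcl1, Bak1 and Bid. The 9 shifts share the Bcl2 values, so they are not independent of each other. Each is the Bcl2 difference minus that of the other member, both given above, so they add no support beyond those differences.

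**Figure D3:**
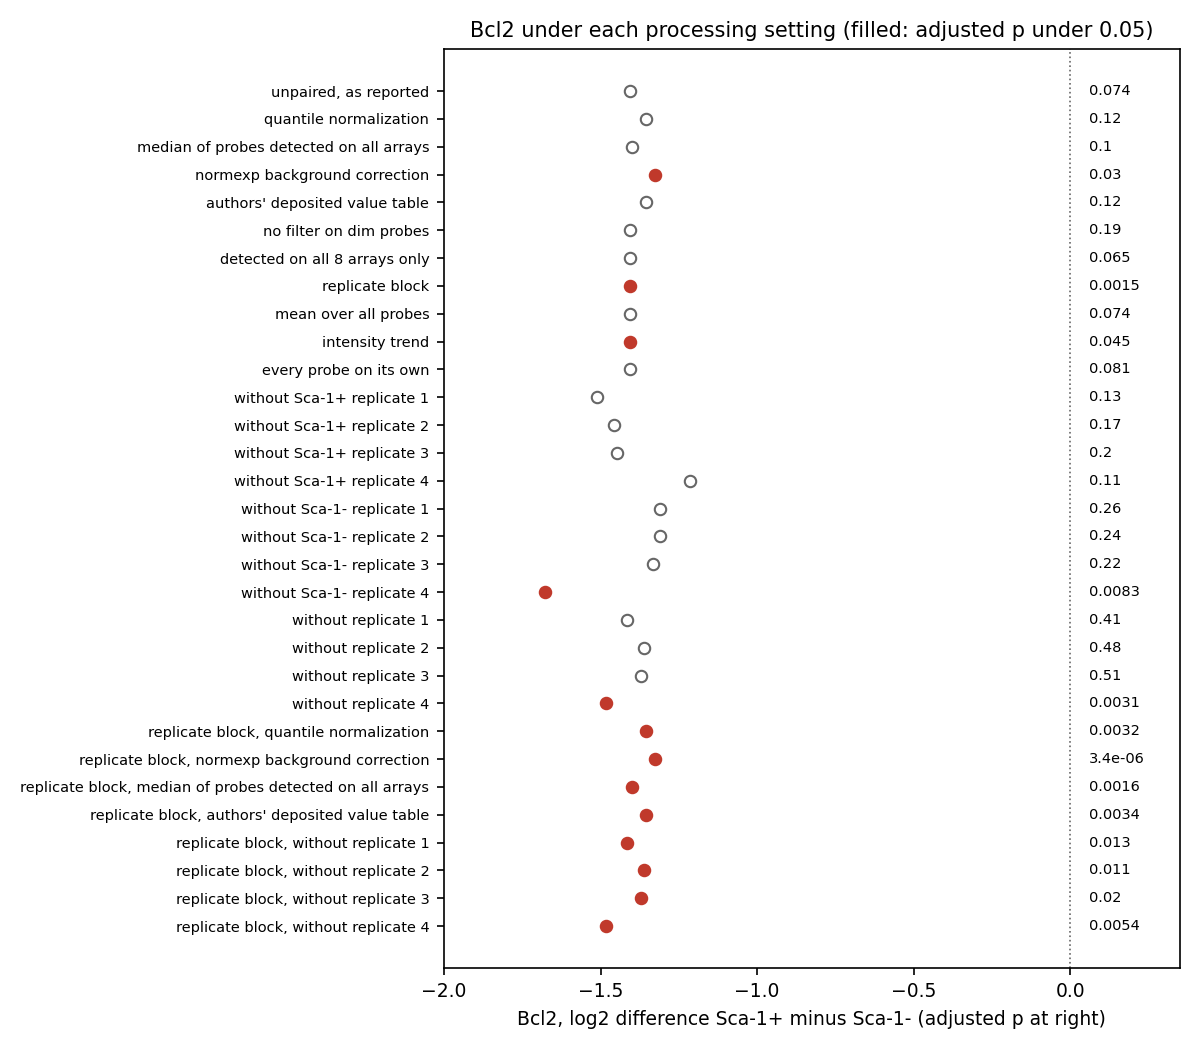
Log2 difference of Bcl2, Sca-1+ minus Sca-1-, under each way of processing the arrays; filled points have an adjusted p under 0.05. Every value is negative, between -1.68 and -1.21, while the side of the threshold depends on the setting.

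The genes whose level followed each member most closely over the 8 arrays were found by the root mean square difference after each gene was set to its own mean, among 17676 genes well above background on every array. For Bcl2 they were Hmgb2 at 0.0802, a probe with no gene name at 0.128 and Cdt1 at 0.152. Hmgb2 encodes a chromatin protein of dividing cells, and Cdt1 encodes a licensing factor for DNA replication. Hmgb2 had a difference of -1.33 (limma adjusted p = 0.119 unpaired and 0.00264 with the block), and Cdt1 had -1.44 (0.0353 and 0.00128). For Bcl2l1 they were Pmvk, 2310058N22Rik and Taldo1, and for Mcl1 they were Vps41, Ap4b1 and Clcc1. Bax was followed by Cox6c and Uqcrb, subunits of respiratory complexes, and by LOC100505283. Bak1 was followed by Gpr19, Narf and Nmral1, and Bid by 0610010F05Rik, Gm7251 and Tfrc. The nearest named genes were Med11 and Ppip5k2 for Bad, Guf1, Ppp2r3d and Zcchc7 for Bbc3, Tmem247 and Itpripl1 for Pmaip1, and Olfr75-ps1 and Kif19a for Bcl2l11. These are nearest patterns among many genes, given as a description with no test.

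Of 88 genes around the family in 6 lists, 76 were tested. In the unpaired limma fit 0 of 76 passed (background 1.71%), and 8 had an unadjusted p under 0.05 (background 8.96%). With the replicate block 5 of 76 passed, 1 higher and 4 lower in Sca-1+, which is 6.58% against a background of 6.22%. The median difference over the 76 was -0.04, against 0.03 over all tested genes.

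Of 17 genes of mitochondrial execution, 3 fell with the block and 0 rose, the sign was negative for 13, and the median was -0.21. Cycs, the cytochrome c that Bax and Bak release, averaged 4.69 ± 0.19 in Sca-1+ and 5.17 ± 0.31 in Sca-1- pDC (SD, n = 4 each). Its difference was -0.49 (limma adjusted p = 0.429 unpaired and 0.0338 with the block). Vdac3, a channel of the outer mitochondrial membrane, had -0.40 (0.210 and 0.0479). The background of genes that fell with the block is 4.12%.

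Of 11 tested genes of the death receptor arm, Tnfsf10 rose with the block (background of rises 2.10%) and 0 fell, with a list median of 0.08. Tnfsf10 encodes TRAIL, a ligand that triggers death receptors on other cells and is itself induced by interferon. It averaged -0.85 ± 0.18 in Sca-1+ and -1.86 ± 0.56 in Sca-1- pDC (SD, n = 4 each), a difference of 1.01 (limma adjusted p = 0.164 unpaired and 0.0420 with the block). Fas and Fasl were too dim to be tested.

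Of 14 tested regulators and targets of p53 and FoxO, Phlda3 fell with the block (background of falls 4.12%) and 0 rose. The list median was 0.02. Phlda3, a p53 target that restrains Akt, averaged -1.09 ± 0.27 in Sca-1+ and -0.14 ± 0.31 in Sca-1- pDC (SD, n = 4 each). Its difference was -0.95 (limma adjusted p = 0.0698 unpaired and 0.0115 with the block). Phlda3 and the p53 targets Bbc3 and Pmaip1 thus had differences of -0.95, 0.20 and -0.12.

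None of the other 3 lists held a gene that passed in either limma fit (background 1.71% unpaired and 6.22% with the block). Over all tested genes, 8.96% had an unadjusted p under 0.05 in the unpaired fit. Of 8 tested further Bcl2 family genes, 1 had an unadjusted p under 0.05, and the median was 0.04. It was Bmf, a BH3-only gene, at 0.70 (limma adjusted p = 0.521 unpaired and 0.0542 with the block), and the next was Bcl2l14 at -0.71 (0.893 and 0.164). The Bcl2l14 probe cleared the background on 2 Sca-1+ and 4 Sca-1- arrays. Of 18 cytokine and kinase survival genes, 1 had an unadjusted p under 0.05, and the median was -0.06. It was Myc, at -1.78 (limma adjusted p = 0.154 unpaired and 0.106 with the block). Its probe cleared the background on 2 Sca-1+ and 3 Sca-1- arrays. The survival kinase gene Pim1 was next at -0.48 (0.669 and 0.0962). Of 8 genes of protein turnover and partners, 0 had an unadjusted p under 0.05, and the median was -0.04. Fbxw7, part of a ubiquitin ligase that acts on Mcl1, stood at 0.23 (limma adjusted p = 0.899 unpaired and 0.188 with the block) and Ywhaz, which encodes a 14-3-3 protein, at -0.21 (1.00 and 0.372).

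**Figure D4:**
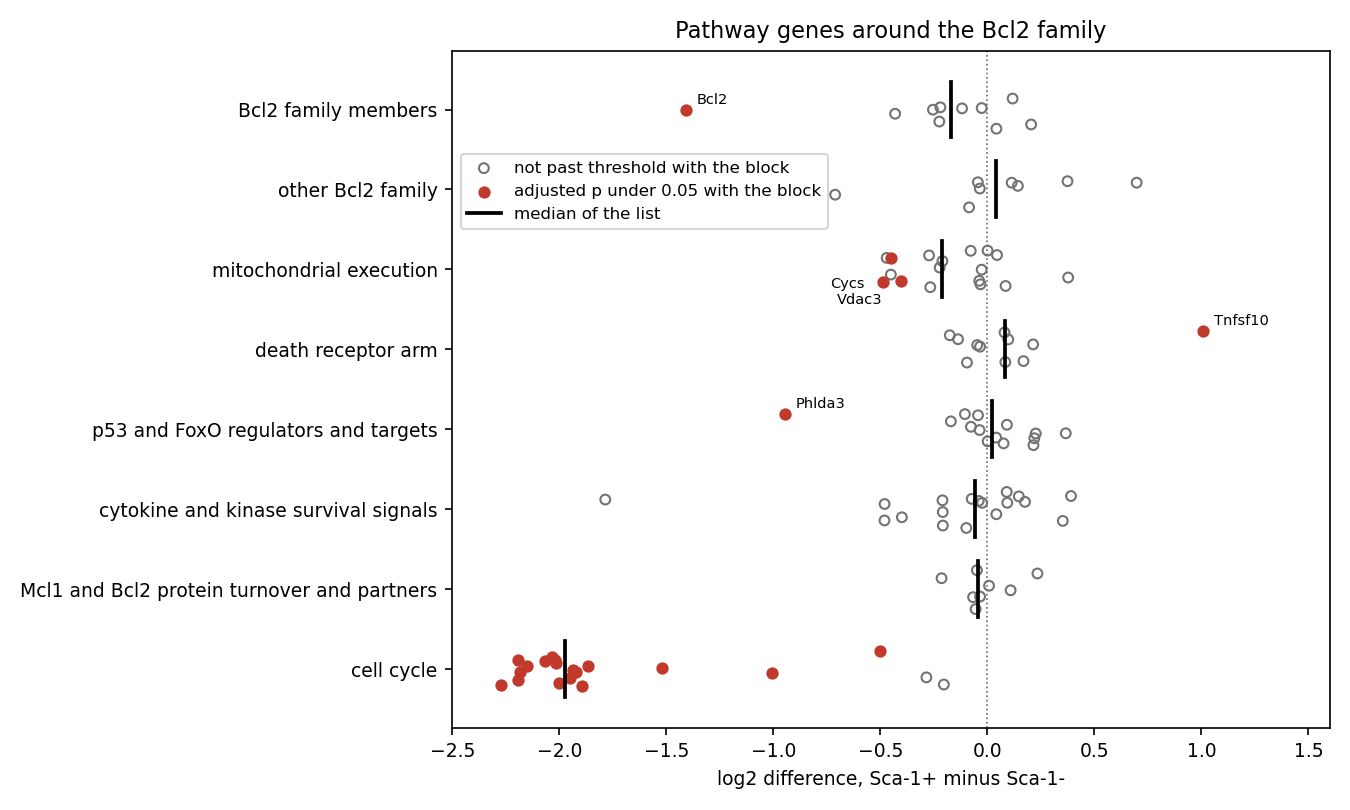
Log2 difference, Sca-1+ minus Sca-1-, of each tested gene of the Bcl2 family, the 6 surrounding lists and the cell cycle list; filled points have an adjusted p under 0.05 with the replicate block and bars are list medians. Bcl2, at -1.41, lies within the range of the cell cycle genes but nearer to 0 than their median of -1.97. Most genes of the surrounding lists lie near 0.

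Levels of proliferation genes were lower in Sca-1+ pDC. Of 20 cell cycle genes, 16 fell in the unpaired limma fit (background of falls 1.58%) and 18 with the block (background 4.12%). The sign was negative for all 20, and the median was -1.97. Mki67, the proliferation antigen, had -2.02 (adjusted p = 0.00812). The others that fell unpaired were Top2a, Ccna2, Ccnb1, Ccnb2, Ccne1, Cdk1, Cdc20, Aurkb, Bub1, Plk1, Mcm3, Mcm5, Mcm6, Rrm2 and Birc5, which encode cyclins, mitotic regulators and replication proteins, and Mcm2 and Pcna joined them with the block. The counts of 16 and 18 include Aurkb, whose probe was well above background on 0 Sca-1+ and 4 Sca-1- arrays. Aurkb thus passed the filter on dim probes only through the group where it was high, and its fall carries no weight. Birc5, the inhibitor of apoptosis Survivin that also acts in mitosis, had -2.19. Tyms and E2f1 did not pass in either fit, at -0.28 and -0.20. The part of cell division in the Bcl2 difference was not tested. Among markers of other cells, the summed linear level of 6 macrophage and monocyte markers was 9.41 to 18.6 in Sca-1+ and 23.5 to 37.1 in Sca-1- samples, which do not overlap. Csf1r, which fell with the block (-1.19, limma adjusted p = 0.00637), is among those markers. Their part in the Bcl2 difference was not tested. Conventional DC markers summed to 101 to 114 in Sca-1+ and 102 to 113 in Sca-1- samples, with Xcr1 not above background on any array. Of the 7 tested, 0 passed unpaired (background 1.71%) and 2 had an unadjusted p under 0.05 (background 8.96%). With the block 4 passed (background 6.22%, 4.12% lower and 2.10% higher). Itgae (0.97, limma adjusted p = 0.0162), Sirpa (0.54, 0.0420) and Id2 (0.54, 0.0485) rose in that fit, and Zbtb46 fell (-1.20, 0.0131). Of the 10 pDC markers, 0 passed unpaired and 1 had an unadjusted p under 0.05, against the same backgrounds. Irf7 (0.94, limma adjusted p = 0.00606) and Ccr9 (0.55, 0.0495) rose with the block (background of rises 2.10%). The part of these markers in the Bcl2 difference was not tested. B cell markers summed to 6.14 to 7.50 in Sca-1+ and 5.22 to 7.40 in Sca-1- samples, and Ms4a1 and Pax5 were not above background on any array. T and NK cell markers summed to 2.20 to 7.51 in Sca-1+ and 2.24 to 6.87 in Sca-1- samples, and Cd3d, Cd3g, Ncr1 and Klrb1c were not above background on any array. Neutrophil markers summed to 2.78 to 10.3 in Sca-1+ and 3.91 to 12.2 in Sca-1- samples. Erythroid and megakaryocyte markers summed to 0.153 to 0.247 in Sca-1+ and 0.158 to 0.768 in Sca-1- samples, with Klf1 not above background on any array.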

How the data were processed

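Per the file headers, the 8 single-colour Agilent arrays were read by the authors with version 10.7.3.1 of Agilent Feature Extraction. The processed intensity they deposited is linear and has the background removed by that software, per the file headers. The deposited value table of the series holds log2 values made by the authors, whose scaling steps are not given in the sources used here, and was used as an alternative. Per the labels, a low-input kit amplified the RNA and labelled it with Cy3; a second amplification is named, with no word on how they relate.

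Control spots and outlier spots (105 to 162 per array) were left out. Saturated spots numbered 0. Repeat spots were averaged as log2, and the 75th percentile of each array was subtracted. Probe names were updated through RefSeq tables, by accession for 26582 probes and by symbol for 3094, while 26005 kept the files' name; this added 0 probes to the 10 members. Each gene was read from its brightest probe and tested if that was well above background on at least 4 arrays. The number of arrays limits the precision.

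Groups and replicate numbers came from the sample titles. The fit used R 4.3.3 and limma 3.58.1 (unpaired, two-sided, with lmFit then eBayes), adjusted by Benjamini-Hochberg over 19818 genes, with a threshold of 0.05. The labels do not say whether replicates are separate cultures or mice. The p-values then measure just the spread of these samples, which may be technical. No 2 arrays held identical values. Deviations from the group means correlated at 0.44, 0.43, 0.64 and 0.89 between the Sca-1+ and Sca-1- samples of replicates 1 to 4, each above the 0.1 set for pairs, and the headers put each pair on 1 slide. The replicate block was therefore fitted as an alternative and is printed where it changes a call. Samples with different numbers among replicates 1 to 3 correlated at 0.12 to 0.54. These also lie above 0.1, so that limit does not tell pairs from other combinations. Replicate 4 of either group correlated at -0.72 to -0.39 with the samples of other numbers in the other group. The shared slide is thus the ground left for the block.

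The members and lists were chosen with earlier results of these data known, and no list was tested as a set. Named genes are the members, Ly6a, each list's genes past the threshold in either fit or otherwise its 2 smallest unadjusted p, and the 3 genes nearest to each member. Csf1r and the conventional DC and pDC markers given with values were named after their values were seen, and some genes of the lists are not reported here. The comparison was also run on simulated data with known changes, in which genes varied independently and no slide stood apart. The outcome is not reported here, so that run lends the fit no support. Sequences come from the deposited scanner files. Plots were made in matplotlib 3.10.9 under Python 3.11.15, with pandas 2.3.3 and numpy 2.4.6. Alternatives were other scalings and background correction, other filters and probe rules, an intensity trend, the replicate block and leaving out replicates.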

Additional observations from a re-analysis of the deposited data

Results flagged for a closer look

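The Bcl2 level in Sca-1- replicate 4 was 2.00, apart from the other 3 Sca-1- samples, the nearest of which was 3.04. Its gap was 0.941 of the range of the group, above the critical value of Dixon's test at 95% for 4 samples. The Sca-1+ sample of the same slide was also the lowest of its group, at 0.82. This was 1 of 20 checks of a member in a group, and chance flags about 1 in 20 groups. The flag holds for the scaled level only. Before scaling, the Bcl2 signal of Sca-1- replicate 4 was 1731, inside the 1307 to 1984 of the other 3 Sca-1- samples. The signal that sets the scale was 434 on its array, against 152 to 232 on slides 1 to 3.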

How the results depend on the processing

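Bcl2 kept a negative difference under all 22 alternatives listed at the start and under 8 chosen after seeing the data, from -1.68 to -1.21. It passed in 5 of the 22 and in all 8 of the others, which joined the replicate block to another scaling or left out a replicate. Its adjusted p ranged from 3.4e-06 to 0.510 in limma. The count of called members was 0 as reported and 1, Bcl2, with normexp, an intensity trend or the replicate block. It was also 1 with the block joined to quantile normalization, the median of detected probes or the authors' deposited table, and with the block without any 1 replicate. It was 2, Bcl2 and Bid, with the block and normexp (Bid adjusted p = 0.0166). Leaving out arrays or replicate numbers gave 0 to 1 called members, 1 to 879 called genes and 0 to 1 called pathway genes. The extremes for all genes were 1 without replicate 1 and 879 without replicate 4, against 339 as reported; no filter on dim probes gave 182 and the replicate block 1233, of which 66.3% were lower. The pathway count was 0 as reported and 5 with the block. The paired fit changed no call of another member. Small differences changed sign, none of them called, when 1 array or replicate number was left out: Bcl2l1 lay at -0.0731 to 0.0249 (positive at 0.00982, 0.0249 and 0.00825), Mcl1 at -0.0802 to 0.18 (negative at -0.0802, -0.0756 and -0.0730), Bcl2l11 at -0.0907 to 0.32 (negative at -0.0907 and -0.0873) and Pmaip1 at -0.36 to 0.13 (positive at 0.13 and 0.00837). The cause was not tested. The mean over all probes moved Bcl2l1 to -0.29 and Bad to -0.14, neither called. No scaling moved the median of all genes by over 0.1. Dim probes, above all Bcl2l11, limit the precision.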

Other observations

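A further probe described in the files as a Bcl2l11 cDNA clone carries a transcript identifier in place of the gene's name, so it is not among the member probes. It lies at chr2:127954736-127955417 (mm9) and was well above background on all 8 arrays. Its difference was 0.32, with 0.95, 0.41, -0.41 and 0.32 within replicates 1 to 4, and it did not pass with the replicate block (limma adjusted p = 0.436 over probes). The Bcl2l11 probe of the family set had 0.74, -0.48, 0.12 and 0.10 in the same pairs.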
